A study of Rattus norvegicus with 2 samples.

Results

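Mesothelial cells form the outer lining of the lung, the visceral pleura. Here they were chosen by 8 marker genes from single-cell libraries of whole rat lung. 1 library came from control rats and 1 from rats exposed to a gas explosion. A cell barcode was selected when it held at least 200 genes, unique molecular identifiers (UMIs, each standing for 1 captured RNA molecule) of at least 3 of Msln, Upk3b, Upk1b, Lrrn4, Wt1, Gpm6a, Gpc3 and Muc16, and at least 0.3% of its UMIs in these 8 genes together. This gave 2439 mesothelial barcodes of 33546 with at least 200 genes, 1321 in the control and 1118 in the explosion library. After enzymatic dissociation, lysis of red cells and bead removal of dead cells, droplet-based 3' libraries were made and sequenced, to learn how lung cells vary after a blast. Both groups were kept under specific pathogen free conditions; strain, sex, age, time after the explosion and number of animals are not given in the sources used here. Each group has 1 library, so nothing could be checked against replicates and no test is given. A difference named here is a difference between 2 libraries, and intervals in parentheses are 95% intervals that cover counting error only, exact except where an approximation is named.

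The mesothelium is a single sheet of flat cells with an epithelial build (keratins, junctions and a mucin-rich surface) and a mesodermal origin, reflected in its transcription factors. It secretes a lubricating film, exchanges fluid and ions with the pleural space, lays down its own basement membrane and makes complement and coagulation regulators. In development and after injury, mesothelial cells can give rise to matrix-producing mesenchymal cells, a change tied to TGF-beta, hedgehog and WNT signalling.

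The 8 selection markers cover the surface, adhesion and identity of these cells. Msln encodes mesothelin, a membrane-anchored glycoprotein, and Muc16 a large mucin that binds it; Upk3b and Upk1b encode uroplakins, Lrrn4 a leucine-rich repeat membrane protein, Gpm6a a tetraspan membrane glycoprotein, Gpc3 a heparan sulfate proteoglycan and Wt1 a zinc finger transcription factor. Of the 8, 6 had a promoter sequence in the RefSeq table of assembly GRCr8 (250 bases before to 50 after the gene start). 3 short motifs were searched on both strands. The TEAD core GGAATG, the site of the factors that partner the mechanosensitive coactivator Yap1, was in the promoters of Lrrn4 and Upk1b, 2 of 6, against 14.2% of 33469 promoters in the table. The WT1/EGR core GCGTGGG was in that of Gpc3, 1 of 6 against 4.33%, and the GATA core AGATAA in 0 of 6 against 11.6%. Such a match is only a string of letters in this window. The 3 promoters that held a motif are shown with it in capitals, here on its reverse strand (CATTCC or CCCACGC), because TEAD, WT1 and GATA genes are among those measured below.
Lrrn4, chr3:140603937-140604236, minus strand: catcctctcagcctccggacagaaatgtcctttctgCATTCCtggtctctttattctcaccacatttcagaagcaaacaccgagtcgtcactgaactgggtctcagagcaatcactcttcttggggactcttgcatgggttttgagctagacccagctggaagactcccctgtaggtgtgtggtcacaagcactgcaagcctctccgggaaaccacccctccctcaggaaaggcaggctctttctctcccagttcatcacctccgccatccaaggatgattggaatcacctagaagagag
Upk1b, chr11:75459131-75459430, plus strand: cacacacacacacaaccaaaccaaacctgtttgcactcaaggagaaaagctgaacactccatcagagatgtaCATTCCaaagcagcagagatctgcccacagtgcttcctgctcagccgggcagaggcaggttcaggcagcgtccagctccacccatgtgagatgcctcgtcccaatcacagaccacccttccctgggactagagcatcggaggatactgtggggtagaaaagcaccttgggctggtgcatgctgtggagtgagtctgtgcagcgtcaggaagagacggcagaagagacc
Gpc3, chrX:137157549-137157848, minus strand: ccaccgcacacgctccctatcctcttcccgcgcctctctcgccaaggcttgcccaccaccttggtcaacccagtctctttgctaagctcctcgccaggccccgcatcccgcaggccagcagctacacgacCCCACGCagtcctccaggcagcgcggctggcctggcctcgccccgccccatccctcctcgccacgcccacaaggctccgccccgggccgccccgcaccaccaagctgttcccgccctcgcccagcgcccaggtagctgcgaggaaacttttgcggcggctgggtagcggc

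The selected barcodes made up 6.26% (5.94 to 6.60) of control barcodes and 8.98% (8.48 to 9.50) of explosion barcodes, a difference of 2.72 points (2.12 to 3.32, normal approximation). Depth moves with this share. The median was 2333 UMIs and 1280 genes per control mesothelial barcode and 821 UMIs and 641.5 genes per explosion mesothelial barcode. The control library held no barcode under 500 UMIs. Among barcodes with at least 500 UMIs the shares were 6.26% and 14.9% (14.1 to 15.8), and after each barcode was thinned to 500 UMIs and selected anew they were 5.37% (985 of 18330) and 13.2% (892 of 6733). In digested tissue a share also depends on how many cells of each kind were released and survived, which was not measured.

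The 8 markers held a median of 1.14% of the UMIs of control and 1.45% of explosion mesothelial barcodes, at most 3.93% and 5.37%. Just inside the limit, 139 control and 23 explosion barcodes held under 0.5%. Just outside it, 304 control barcodes had at least 3 markers but a lower share (median 0.144%), and their median depth was 11231 UMIs. In the explosion library 3 barcodes were of this kind. A further 36 control and 93 explosion barcodes passed the share with only 2 markers. No barcode sequence was shared by the mesothelial barcodes of the libraries, against 85 over all barcodes.

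**Figure D1:**
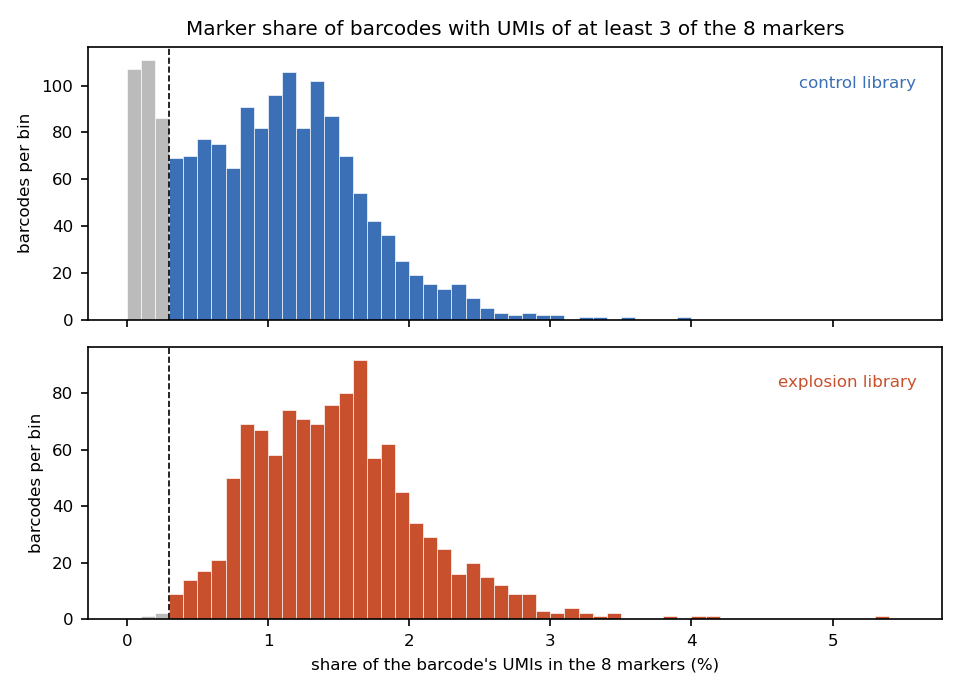
Share of a barcode's UMIs in the 8 selection markers (x axis, percent, bins of 0.1) against the number of barcodes (y axis) for barcodes with UMIs of at least 3 markers, control above and explosion below. Bars left of the dashed line at 0.3% (grey) were not selected: 304 control and 3 explosion barcodes lie there.

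Selection fixes that these markers are high in the selected barcodes, so their levels are given as a description. Msln stood at 2273 CPM (UMIs per 1000000 UMIs of the same barcodes) in control and 1127 in explosion mesothelial barcodes, 2.02-fold (1.90 to 2.14) lower in the explosion library. Upk1b was also lower, at 789.9 and 515 CPM. Both encode proteins of the cell surface. The other 6 markers were higher in the explosion library, and all of these but Wt1 encode membrane or surface proteins too. Muc16 stood at 626 and 1998 CPM, 3.19-fold (3.01 to 3.38) higher, and Wt1 at 80.0 and 232 CPM. Gpm6a, at 871 and 2123 CPM, and Lrrn4, at 727 and 1608 CPM, were more than 2-fold higher, and Upk3b (1182 and 1951 CPM) and Gpc3 (2905 and 4610.0 CPM) less than that. The shares of barcodes with a UMI followed these directions only after thinning. Before it, Muc16 alone of the 6 markers with higher CPM was detected in a larger share of explosion barcodes, and Upk3b, for example, was in 90.5% of control and 76.7% of explosion mesothelial barcodes (48.9% and 59.6% after thinning). Msln was detected in 95.5% of control and 59.9% of explosion mesothelial barcodes, and in 68.7% and 42.2% once each was thinned to 500 UMIs, which left out 110 shallower explosion barcodes. Muc16 was detected in 71.1% and 77.4%, and in 28.1% and 59.1% after thinning. Among B cell-selected barcodes, which should lack both, Msln was in 1.85% and 1.86% at median depths of 1177 and 352 UMIs. In all other barcodes the markers ranged from 0.541 CPM (Wt1, control) to 126 CPM (Gpc3, explosion).

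**Figure D2:**
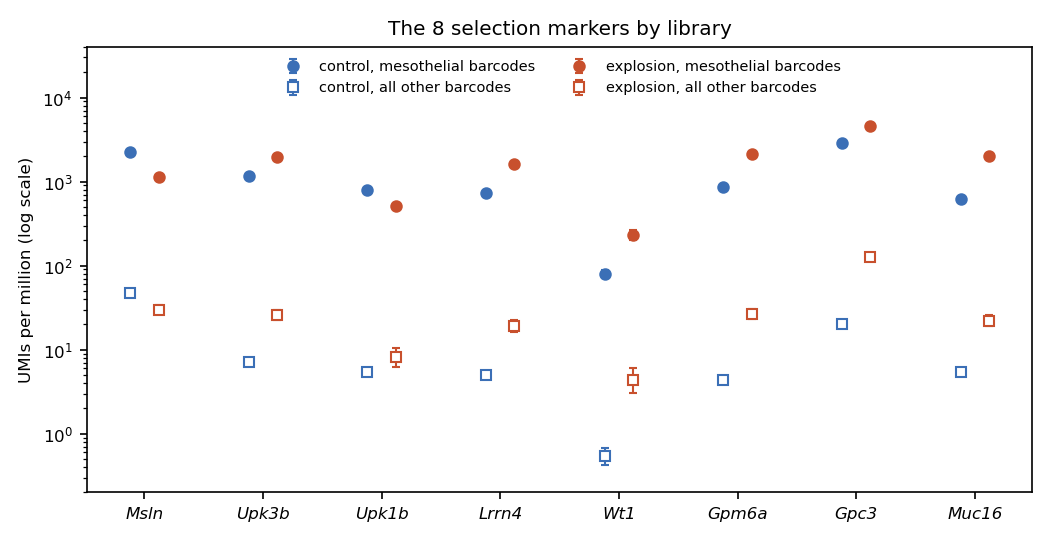
CPM (log axis) of the 8 selection markers in mesothelial barcodes (filled circles) and all other barcodes (open squares) of the control (blue) and explosion (orange) libraries; bars are exact 95% Poisson intervals and are often smaller than the symbols. Msln and Upk1b are lower and the other 6 higher in the explosion library.

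Genes the selection did not use also marked these barcodes in both libraries. They were ranked by the smaller of the 2 libraries' ratios over all other barcodes. Stmn2, a microtubule-binding protein best known from neurons, stood at 1151 and 1185 CPM in control and explosion mesothelial barcodes against 11.1 and 15.4 CPM elsewhere. Nkain4, a small membrane protein that associates with the sodium pump, stood at 1026 and 474 CPM, 164-fold and 67.5-fold above other barcodes. Bnc1, a zinc finger protein of surface epithelia, was 131-fold and 72.9-fold above them. Pappa2, a protease that cleaves IGF-binding proteins, was 149-fold and 66.0-fold above them, and the LIM homeobox factor Isl1 169-fold and 69.5-fold. The same ranking held the growth factor gene Pgf, the polarity gene Crb2, Pde1b, Zpld1, Adh7, Chst4, Ildr2 and 3 uncharacterised loci. Between the libraries, Stmn2 was level, with an explosion to control ratio of 1.03 (0.967 to 1.10), Nkain4 was 2.16-fold (1.97 to 2.38) lower and Pappa2 2.81-fold (2.53 to 3.11) higher in the explosion library.

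Other genes were read as a check of the label. Calb2, the gene of calretinin and a common antibody marker of mesothelium, had 1 UMI in all control and 0 in all explosion mesothelial barcodes, where 3 counts would be 0.668 and 2.85 CPM. Collagen genes were high: 83.1% of control and 81.2% of explosion mesothelial barcodes had UMIs of at least 3 of 8 fibroblast markers, led by Col3a1 at 3829 and 7988 CPM. Of the fibroblast markers, Col13a1 was at 0 in both libraries, though it had only 1 UMI in control fibroblast-selected barcodes, and Pdgfra, a defining receptor of fibroblasts, at 0.668 and 2.85 CPM, against 178 and 541 CPM in fibroblast-selected barcodes. Blood endothelial markers summed to 20.9 and 75.0 CPM over 8 genes, with Cdh5 and Emcn at 0 in control, and smooth muscle and pericyte markers to 59.7 and 167 CPM over 9 genes. In control the most frequent foreign signal was of club and secretory cells. At least 3 of their 8 markers were in 1010 control (76.5%) and 15 explosion (1.34%) mesothelial barcodes, and at least 3 alveolar type 2 markers in 136 (10.3%) and 16 (1.43%). UMIs of at least 3 markers of one immune, ciliated or endothelial type were in 179 control (13.6%) and 24 explosion (2.15%) mesothelial barcodes, of which 117 and 10 held macrophage markers. Those barcodes were deep, with medians of 7221 and 1467 UMIs against 2096 and 816.5 for the others.

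Mesothelial barcodes of both libraries held RNA of other cells, and the libraries differed in RNA make-up. Scgb1a1, the secretory protein of club cells, took 24.1% of control and 5.94% of explosion UMIs overall and 3.52% and 0.959% of mesothelial UMIs. Of mesothelial UMIs in control and explosion, 10.3% and 3.90% came from genes of ribosomal proteins. Ribosomal RNAs of mitochondria held 1.72% and 3.57% of them, and the nuclear precursor Rn45s 0.0192% and 0.312%. These values differ along with all ratios given here, and their part in the ratios was not tested.

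Mesothelial UMIs were summed per library (4487992 control and 1054021 explosion UMIs), and ratios of CPM were taken for 6464 genes with a mean of at least 25 CPM. A gene well under 25 CPM in 1 library passed only through the other, and was then past 2-fold by this minimum itself. Tbx5, Gli1, Adamts1 and Egr1 below are among such list members, and all genes were filtered alike. The median gene was higher in the explosion library by 0.51 on the log2 scale, so a ratio is also read against that shift. At least 2-fold higher in the explosion library were 1990 genes (30.8%) and at least 2-fold lower 835 (12.9%). Relative to the median gene these numbers became 863 (13.4%) and 1401 (21.7%), which turns the balance of higher to lower. At a mean of at least 100 CPM, 530 of 1884 genes were higher and 401 lower. The shares of all genes thus depend on expression level, and lists below were not set against genes of like level. The median log2 ratio of the 6464 genes was 0.93 in all other barcodes, 0.51 in fibroblast-selected, 0.34 in blood endothelial-selected and 0.63 in ciliated-selected barcodes. Across genes, the ratios in mesothelial barcodes followed those in all other barcodes (Spearman's rho 0.863 over these 6464 genes, which share the libraries and are not independent).

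Among 28 gene lists, the 4 highest medians belonged to chromatin and nuclear RNA, Hippo and mechanosensing, mesothelial transcription factors, and keratins with junction proteins, and the lowest to oxidative phosphorylation. The lists between a median of 0 and 0.51, from complement to heat shock, were higher in CPM and lower relative to the median gene, so no direction is drawn for them.

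**Figure D3:**
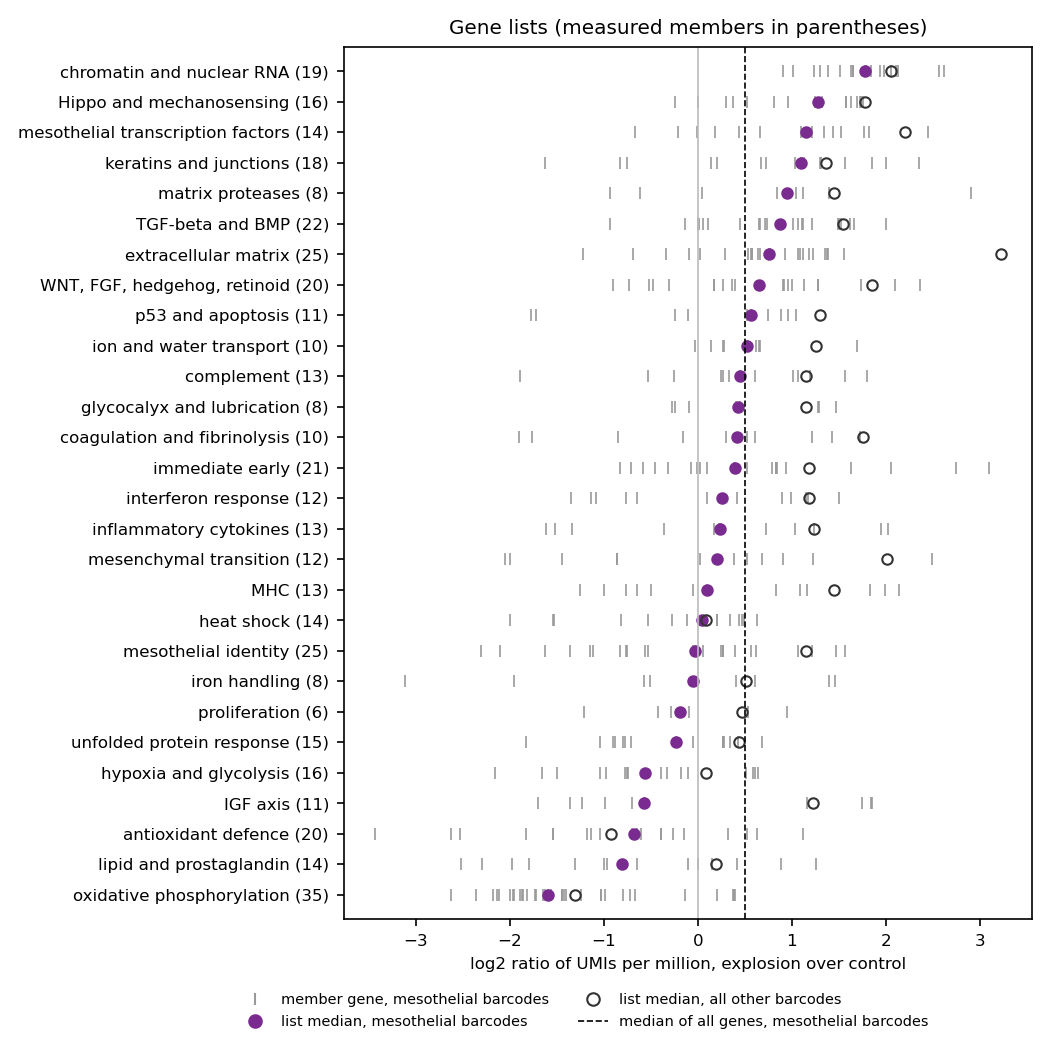
Log2 ratio of CPM, explosion over control (x axis), for 28 gene lists (y axis, measured members in parentheses). Grey ticks are member genes and filled circles list medians in mesothelial barcodes, open circles list medians in all other barcodes, and the dashed line is the median of all genes in mesothelial barcodes (0.51); the chromatin list lies highest and oxidative phosphorylation lowest.

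Mesothelial identity genes differed in both directions. Of 25 measured identity genes outside the selection, 4 were at least 2-fold higher and 6 at least 2-fold lower in the explosion library, against the 30.8% and 12.9% of all genes, with a median of -0.029 (-0.54 relative to the median gene). Tm4sf1, a small tetraspan surface protein, stood at 704 CPM in control and 142 in explosion mesothelial barcodes, 4.95-fold (4.20 to 5.87) lower. Crip1, a LIM-domain protein, stood at 12989 and 3015 CPM. The retinoic acid-making enzyme Aldh1a2 (711 and 933 CPM), the WNT enhancer Rspo1 (757 and 915 CPM) and the water channel Aqp1 (1018 and 1563 CPM) were within 2-fold; these 3 were named after their values were seen. Higher were Sulf1, an enzyme that trims sulfate from heparan sulfate, at 433 and 1282 CPM (2.96-fold, 2.76 to 3.18), and Podxl, a charged surface sialomucin, at 27.9 and 76.8 CPM (log2 ratio 1.47, and 3.04 without the Igfbp4-led subset).

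Transcription factors of the mesothelium and coelomic lining lay higher. Of 14 measured, 8 were at least 2-fold higher (57.1%, against 30.8% of all genes) and 0 lower (against 12.9%). The list median was 1.15 (0.65 relative to the median gene). Bnc2, a zinc finger protein of the same family as Bnc1, stood at 128 CPM in control and 454 in explosion mesothelial barcodes (3.54-fold higher, 3.13 to 4.00). Tbx5, a T-box factor of lung and heart development, stood at 8.69 and 47.4 CPM, and Gata4, named after its value was seen, at 30.7 and 77.8 CPM. Tbx5 passed the CPM minimum only through the explosion library, so its count as higher was fixed by that minimum. At the low end were the nuclear receptor Nr2f6, at 55.0 and 34.2 CPM, and Osr1, at 39.0 and 33.2 CPM. The place of Osr1 rests on the Igfbp4-led subset described below: without it, Osr1 had 3 control and 16 explosion UMIs and a log2 ratio of 4.16. The same list had a median of 2.21 in all other barcodes and 0.81 in fibroblast-selected barcodes, so its height was not seen only in mesothelial barcodes.

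Epithelial structure genes went both ways. Of 18 measured keratin and junction genes, 11 were at least 2-fold higher in the explosion library and 1, Krt18, lower. These are 61.1% and 5.56%, against 30.8% and 12.9% of all genes. The list median was 1.10, against 1.36 in all other, 1.06 in fibroblast-selected, 0.47 in blood endothelial-selected and 1.07 in ciliated-selected barcodes. Its height was thus not seen only in mesothelial barcodes. The 3 keratins had log2 ratios below 0, and all other members lay above 0, with F11r (0.20) and Ezr (0.14) below the median gene. Ctnnd1, the catenin that holds cadherins at the membrane, stood at 54.6 CPM in control and 279 in explosion mesothelial barcodes (5.11-fold higher, 4.30 to 6.08). Dsp, the desmosomal anchor of keratin filaments, stood at 415 and 1224 CPM and was named after its value was seen. Of the keratins of simple epithelia, Krt18 stood at 751 and 243 CPM (3.09-fold lower, 2.72 to 3.52), Krt19 at 2712 and 1526 CPM and Krt8, named after its value was seen, at 1305 and 774 CPM. In all other barcodes the same 3 keratins were lower too, with log2 ratios of -2.16, -1.18 and -0.87.

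Genes of mechanosensing and the Hippo pathway, in which Yap1 and its TEAD partners answer stretch and cell contact, lay high as a list. Of 16 measured, 9 were at least 2-fold higher (56.25%, against 30.8% of all genes) and 0 lower (against 12.9%). Above the median gene lay 12, and the list median was 1.28. The caveola coat genes Cavin1, at 63.9 CPM in control and 216 in explosion mesothelial barcodes, and Cavin2, at 141 and 471 CPM, were the highest members. The pathway's own genes Yap1, at 28.1 and 83.5 CPM, and Tead1, at 123 and 306 CPM, were both over 2-fold higher (named after their values were seen). At the low end, Ccn2, a matricellular growth factor and known target of the pathway, stood at 185 and 156 CPM (2.70 on the log2 scale in other barcodes), and Cav1, the caveolin itself, at 1281 and 1283 CPM. The list median was 1.78 in all other and 1.77 in fibroblast-selected barcodes.

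Several ligand and receptor genes of signals that act on mesothelial fate were higher. In the TGF-beta and BMP list 11 of 22 measured genes (50%) were at least 2-fold higher and 0 lower. Of all genes, 30.8% and 12.9% were. The list median was 0.87, against 1.54 in all other, 1.18 in fibroblast-selected, 0.63 in blood endothelial-selected and 1.29 in ciliated-selected barcodes. The ligand gene Tgfb3 stood at 62.8 CPM in control and 252 in explosion mesothelial barcodes (4.02-fold higher, 3.38 to 4.77) and the coreceptor Tgfbr3 at 54.8 and 174 CPM. Id1, an early target of BMP signalling, was lower, at 435 and 227 CPM, and the ligand Tgfb1 was level at 29.6 and 26.6 CPM. Of 20 WNT, FGF, hedgehog and retinoid genes, 7 were at least 2-fold higher (35%, near the 30.8% of all genes) and 0 lower. This list's median was 0.65, against 1.85 in all other, 1.08 in fibroblast-selected, 0.98 in blood endothelial-selected and 0.79 in ciliated-selected barcodes. Its highest members belong to hedgehog signalling: Gli1, the pathway's transcription factor, stood at 13.8 and 71.2 CPM (5.15-fold higher, 3.63 to 7.33), and the receptor Ptch1, which is itself a target, at 104 and 442 CPM (4.27-fold higher, 3.74 to 4.86). In all other barcodes Gli1 and Ptch1 had log2 ratios of 3.74 and 1.85.

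Matrix genes differed less in mesothelial barcodes than elsewhere. Of 25 measured, 9 were at least 2-fold higher (36.0%, near the 30.8% of all genes) and 1 lower, with a median of 0.75, against 3.22 in all other barcodes, which hold more fibroblasts in the explosion library (467 selected barcodes against 148), and 0.97 within fibroblast-selected barcodes. Tnc, tenascin C, stood at 118 CPM in control and 347 in explosion mesothelial barcodes, and Lamc1, a chain of basement membrane laminin, at 88.7 and 231 CPM. Eln, elastin, was the 1 lower gene, at 1174 and 505 CPM (2.33-fold lower, 2.13 to 2.55), while in other barcodes it stood at 16.4 and 95.3 CPM. Among proteases and inhibitors 4 of 8 were at least 2-fold higher (50%, against 30.8% of all genes) and 0 lower. Their median was 0.95, and 0.12 with only genes of at least 100 CPM. Adamts1, an aggrecan-cleaving protease, stood at 11.6 and 87.3 CPM and the inhibitor Timp1 at 1109 and 579.7 CPM. Of 12 measured genes tied to mesenchymal transition, 2 were at least 2-fold higher and 3 lower. These are 16.7% and 25%, against 30.8% and 12.9% of all genes. Zeb1, a repressor of epithelial genes, stood at 23.0 and 129 CPM and S100a6, a calcium-binding protein, at 4808 and 1157 CPM.

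Host defence genes differed in both directions, and their counts are read against the 30.8% higher and 12.9% lower of all genes. Of 13 complement genes 5 were at least 2-fold higher (38.5%) and 1 lower (median 0.44). C4a, complement component 4, was level at 10695 CPM in control and 13417 in explosion mesothelial barcodes, and stood 131-fold and 46.3-fold above other barcodes; it was named after its value was seen. C4b and C4a are close copies, so their reads may have been split between them. C1r, a protease of the first complement component, was higher, at 602 and 1784 CPM. In the coagulation list 3 of 10 were at least 2-fold higher (30.0%) and 2 lower, with F3, tissue factor, at 20.7 and 68.3 CPM and Serpinf1, an antiangiogenic serpin, at 282 and 82.5 CPM. Among 13 cytokine and NF-kB genes 4 were at least 2-fold higher (30.8%) and 3 lower. Il33, an alarmin released by damaged barrier cells, stood at 414 and 144 CPM (log2 ratio -1.52, and -0.039 without the Igfbp4-led subset described below), and Tnfaip3, a brake on NF-kB, at 21.8 and 84.4 CPM. Of 12 interferon response genes 3 were higher and 3 lower by that measure, among them Ifitm3 at 3248 and 1275 CPM. Of 21 immediate early genes 4 were at least 2-fold higher (19.0%) and 0 lower, with Nr4a1 at 21.4 and 183 CPM (8.56-fold higher, 6.67 to 11.1) and Egr1 at 12 and 80.6 CPM.

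Of 11 measured IGF axis genes, 4 were at least 2-fold higher (36.4%, near the 30.8% of all genes) and 3 lower (27.3%, against 12.9%). The list median was -0.57 in mesothelial barcodes against 1.30 in fibroblast-selected, 1.47 in ciliated-selected and 1.22 in all other barcodes. The receptor genes Igf1r, at 43.0 CPM in control and 155 in explosion mesothelial barcodes, and Igf2r, at 214 and 767 CPM, were over 3-fold higher. The lowest members were genes of binding proteins, which hold IGFs away from their receptors: Igfbp6 stood at 5512 and 2149.9 CPM (2.56-fold lower, 2.46 to 2.68) and Igfbp7 at 523 and 160.3 CPM (3.26-fold lower, 2.79 to 3.84). Without the Igfbp4-led subset the log2 ratio of Igfbp7 went from -1.70 to -0.92, short of 2-fold. Igfbp3, a binding protein named after its value was seen, went the other way, at 25.6 and 56.9 CPM. In other barcodes Igfbp6 stood at 42.1 and 68.9 CPM. When barcodes with at least 3 markers of any other type were left out, which kept 261 control barcodes, this list's median became 0.69. Of 14 measured lipid and prostaglandin genes 1 was at least 2-fold higher (7.14%, against 30.8% of all genes) and 5 lower (35.7%, against 12.9%). The list median of -0.80 became -0.049 with no minimum CPM. Pla2g2a, a secreted phospholipase, stood at 1502 and 262 CPM (5.74-fold lower, 5.09 to 6.49) and the fatty acid carrier Fabp4 at 147 and 29.4 CPM. Fabp4 is also 1 of the macrophage markers, of which at least 3 were in 117 control and 10 explosion mesothelial barcodes. Its log2 ratio of -2.30 ranged from -2.80 to -0.87 over the alternatives, and the part of mixed barcodes in it was not tested.

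Oxidative phosphorylation and antioxidant lists lay low, and the chromatin list high, in mesothelial and other barcodes alike. Of 35 measured genes of oxidative phosphorylation 26 were at least 2-fold lower (74.3%, against 12.9% of all genes) and 0 higher. The list median was -1.59, against -1.31 in all other and -1.68 in fibroblast-selected barcodes. Cox5a, a subunit of cytochrome oxidase, stood at 265 CPM in control and 42.7 in explosion mesothelial barcodes. The ATP synthase core genes Atp5f1a, at 199 and 261 CPM, and Atp5f1b, at 351 and 461 CPM, were slightly higher in CPM. Their log2 ratios of 0.39 and 0.40 lay below that of the median gene (0.51). Of 20 antioxidant genes 9 were at least 2-fold lower (45%, against 12.9% of all genes) and 1 higher (5%, against 30.8%). The metal-binding Mt1 stood at 312 and 28.5 CPM (11-fold lower, 7.65 to 16.3). The iron store gene Ftl1 stood at 1058 and 121 CPM; it has many copies in the genome, so its reads may have been split. Of 19 chromatin and nuclear RNA genes 18 were at least 2-fold higher (94.7%, against 30.8% of all genes). Their median was 1.77, against 2.05 in other barcodes, and the remodeller Srcap stood at 19.4 and 119.5 CPM. The lists not described here had medians from -0.56 (hypoxia and glycolysis) to 0.56 (p53 and apoptosis).

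Among single genes, Slurp1, a secreted Ly6-family protein of epithelia, had the lowest ratio: 411 UMIs (91.6 CPM) in control and 4 (3.79 CPM) in explosion mesothelial barcodes. It was 24.1-fold (9.35 to 89.0) lower, and in control it stood 65.4-fold above other barcodes. Lgals7, a galectin of stratified epithelia, stood at 70.4 and 9.49 CPM, and the short actin-binding protein gene Dstnl1 at 129 and 7.59 CPM, which was as low elsewhere (130.3 and 7.66 CPM in other barcodes). The other lowest genes outside those above were Plac9, Mrpl43, Cela3b, Ucma, Mrpl41, Pgls, Exosc5 and RT1-CE2. The highest ratios were mostly shared with other barcodes. Rn28s and Rn45s are ribosomal RNA, and Rn28s had 1 control and 59 explosion mesothelial UMIs. Ttc39a stood at 4.68 and 275 CPM, and at 12.5 and 279 CPM elsewhere. Hrh2, the histamine H2 receptor, stood at 9.14 and 82.5 CPM (9.04-fold higher, 6.16 to 13.4). It was rare elsewhere, at 0.0889 and 1.51 CPM, but higher in the explosion library there too. The kinase gene Mylk, which drives actomyosin contraction, stood at 6.91 and 87.3 CPM and the calcium channel gene Cacna1d at 5.79 and 63.6 CPM. Reads of the RT1-CE genes, near-identical class I copies, may have been split between them, which was not tested; RT1-CE1 was higher and RT1-CE2 lower.

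Set against all other barcodes, the largest gaps were genes lower in mesothelial and higher in other barcodes. Plac9 stood at 49.2 and 4.74 CPM in mesothelial barcodes (221 and 5 UMIs) and 2.98 and 17.5 CPM elsewhere. Pola2, the DNA polymerase alpha subunit, stood at 49.7 and 10.4 CPM against 1.87 and 10.4 CPM, and Clec3b, tetranectin, at 255 and 122 CPM against 7.05 and 53.1 CPM. Igfbp4 stood at 179 and 75.9 CPM against 2.78 and 44.0 CPM, and its direction in mesothelial barcodes turned without the Igfbp4-led subset described below. The other barcodes hold more fibroblasts in the explosion library, and within fibroblast-selected barcodes the log2 ratios of Plac9, Pola2, Clec3b and Igfbp4 were -0.19, 1.27, 0.26 and 1.5. In the opposite direction, Chrm3, the muscarinic M3 receptor, stood at 14.0 and 88.2 CPM in mesothelial and 1.43 and 3.26 CPM in other barcodes. Hlf, a clock-linked transcription factor, stood at 51.5 and 266 CPM against 11.1 and 24.7 CPM, and the phospholipase gene Plcb1 at 14.7 and 73.1 CPM against 7.26 and 12.7 CPM.

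**Figure D4:**
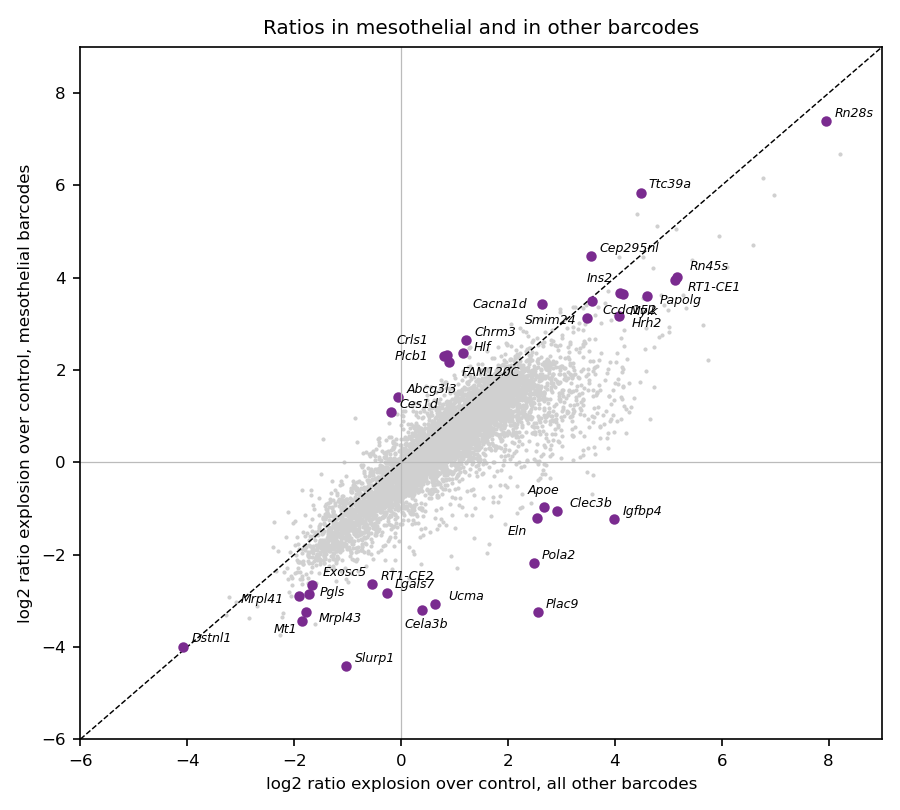
Log2 ratio of CPM, explosion over control, in mesothelial barcodes (y axis) against all other barcodes (x axis); grey dots are the 6464 genes measured, labelled points the genes named by their ratio or by the gap between both ratios, and the dashed line marks equal ratios. Igfbp4, Plac9, Pola2, Clec3b, Eln and Apoe lie below zero on the y axis and above zero on the x axis.

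Within the mesothelial barcodes of each library, a subset led by Igfbp4 stood apart. Each library was clustered alone, without the 8 selection markers, and all clusters with Igfbp4 among their 30 leading genes were joined. In the explosion library the subset's first leading gene was Igha, an immunoglobulin gene, at 43 UMIs and 45.5-fold over other mesothelial barcodes. Igfbp4 followed there at 64 UMIs and 41.3-fold. The subset held 103 of 1321 control (7.80%) and 65 of 1118 explosion mesothelial barcodes (5.81%). It was deeper than the rest, with medians of 5351 against 2201 UMIs in control and 944 against 815 in the explosion library, and carried 17.1% and 7.01% of mesothelial UMIs. Other clustering resolutions gave 86 and 104 control and 58 and 66 explosion barcodes, of which 86, 103, 58 and 65 were in the subset. The clusters were made from these genes, so their levels are a description.

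The subset shared its genes across libraries. Of the 30 leading genes of the control subset, 26 had at least 10 UMIs in explosion mesothelial barcodes, and all 26 were at least 2-fold higher in the explosion subset than in the other mesothelial barcodes of that library, where 8.35% of 10279 genes were. Of the 30 genes lowest in the control subset, 22 of 29 measured were at least 2-fold lower in the explosion subset, where 21.5% of genes were. The explosion subset was itself found by clustering on expression and by Igfbp4, so the overlap is not independent of the choice. Igfbp4, a secreted IGF-binding protein, stood at 1041 CPM in the control subset and 1.34 in other control mesothelial barcodes, and at 866 and 16.3 CPM in the explosion library. Fibroblast-selected barcodes held Igfbp4 at 252 CPM in control and 711 (625 to 804) in explosion. The latter interval overlaps that of the explosion subset (667 to 1106). Ucma, a matrix protein of cartilage, stood at 1234 against 2.42 CPM in control and 325 against 2.04 CPM (24 and 2 UMIs) in the explosion library.

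Several other leading genes encode secreted products. Wfdc21, a small whey-acidic-domain protein, stood at 6123 against 117 CPM in control and 3141 against 77.5 CPM in the explosion library. Pla2g2a stood at 7703 against 226 and 1882 against 139.8 CPM, Il33 at 1989 against 90.5 and 893 against 87.7 CPM. Apoe, the lipid carrier, chosen after its values were seen, was high in both parts of each library but higher in the subset, at 8189 against 824 and 5943 against 702 CPM. The growth factor gene Fgf1 had 90 of 91 control and 23 of 25 explosion mesothelial UMIs in the subset. The transcription factor Osr1 and the matrix genes Fbln2, Fbln1, Dcn, Svep1, Col6a5 and Col18a1 were also among the leading genes. Several of these were not particular to the subset. Dcn stood at 6178 CPM in control and 4428 in explosion fibroblast-selected barcodes, against 1348 and 785 in the subset. Fbln2, Fbln1 and Svep1 were also higher in fibroblast-selected barcodes of both libraries, and Col6a5 in those of explosion only. Osr1 and Col18a1 were lower there in both libraries.

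Genes of the main mesothelial population were low in the subset. Prph, a neuronal intermediate filament, had 0 UMIs in the control subset, where 3 counts would be 3.92 CPM, against 346 CPM in other control mesothelial barcodes, and stood at 40.6 against 146 CPM (3 UMIs in the subset) in the explosion library. Stmn2 stood at 45.7 against 1378 CPM in control and 541 against 1233 CPM in the explosion library. The endothelin receptor gene Ednrb had 0 and 1 UMIs in the 2 subsets, against 102 and 249 CPM in the other mesothelial barcodes. Tnc and the water channel Aqp1 were low as well.

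Every barcode of the subset had passed the selection on the 8 markers, so their presence in it was fixed and only their levels are described. The markers held a median of 0.802% of UMIs in the control subset against 1.18% in the rest, and 1.12% against 1.47% in the explosion library. Msln stood at 2434 against 2239 CPM in control and 1367 against 1109 CPM in the explosion library, and Muc16 and Upk3b were within 1.5-fold of the rest. Gpm6a, at 451 against 958 CPM in control and 1029 against 2206 in explosion, and Upk1b, at 465 against 857 and 366 against 526 CPM, were lower in the subset. Wt1 was higher, at 192 against 57.0 and 528 against 210.2 CPM, and Gpc3 lower, at 1234 against 3249 and 1895 against 4815 CPM. Fibroblast genes differed among themselves. Pdgfra had 1 UMI in the control and 0 in the explosion subset, whereas the collagen genes Col3a1, at 7587 against 3056 CPM in control, and Col1a1, at 1941 against 822 CPM, and the proteoglycan gene Dcn, at 1348 against 42.2 CPM, were higher in the subset. In the explosion library the same 3 stood at 11588 against 7716, 3289.5 against 2063 and 785 against 165 CPM. Called doublets made up 6.80% (7) and 0% of the subset, against 11.7% and 10.5% of the other mesothelial barcodes. Of the 103 control barcodes in the subset, 15 had UMIs of at least 3 macrophage markers, 13 of them in 1 of its 2 clusters, and in the explosion subset 0 had.

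**Figure D5:**
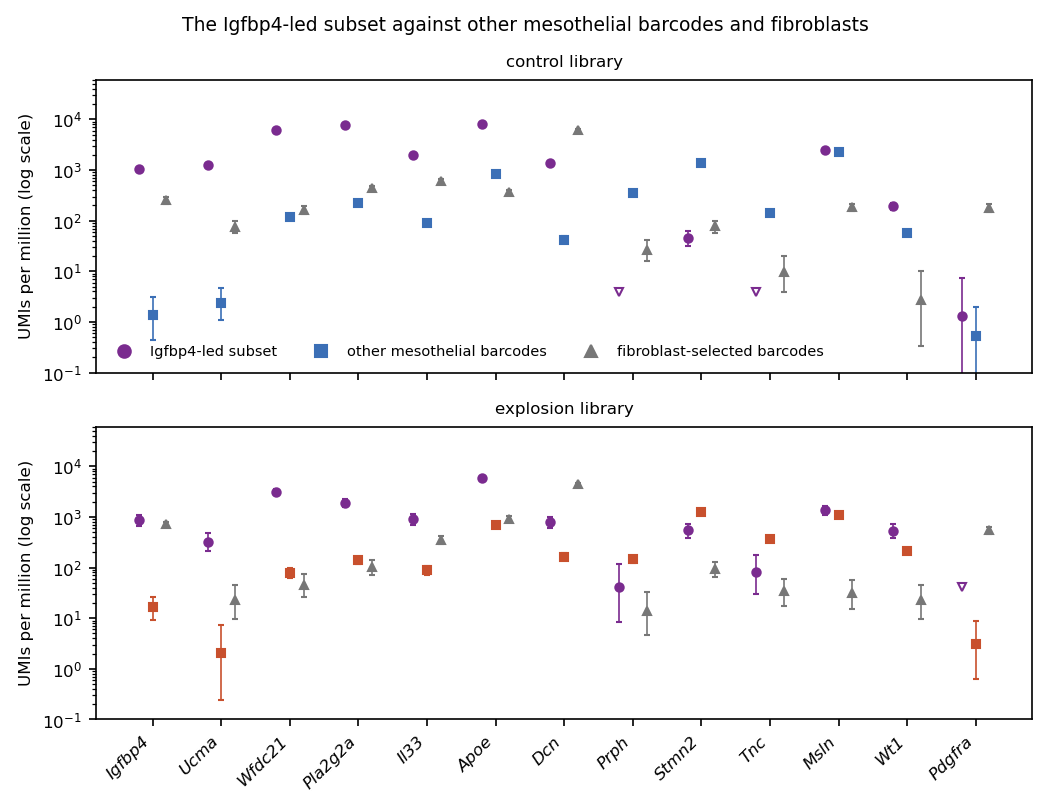
CPM (log axis) of 13 genes in the Igfbp4-led subset (circles), the other mesothelial barcodes (squares) and fibroblast-selected barcodes (triangles) of the control (upper) and explosion (lower) library. Bars are exact 95% Poisson intervals, and an open downward triangle marks the limit that 3 counts allow where a gene had 0 UMIs. Igfbp4, Ucma, Wfdc21 and Pla2g2a lie highest in the subset, but Igfbp4 intervals of subset and fibroblasts overlap in the explosion library. Dcn lies highest in fibroblast-selected barcodes, and Msln is level between the subset and the rest.

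The subset carries some of the ratios between the libraries. Without it, the log2 ratio of Igfbp4 in mesothelial barcodes went from -1.23 to 3.51 (5 control and 16 explosion UMIs, ratio 12.2, 4.25 to 42.4). That of Pla2g2a went from -2.52 to -0.69, that of Pola2 from -2.19 to -1.03 and that of Il33 from -1.52 to -0.039. Cela3b, a pancreatic-type elastase, and Ucma were low in mesothelial barcodes as a whole (log2 ratios of -3.20 and -3.08), and outside the subset too few UMIs remained to give a direction. Cela3b had 4 in each library (ratio 3.80, 0.707 to 20.4) and Ucma 9 in control and 2 in explosion (ratio 0.844, 0.0887 to 4.08). Within the subset, the ratio of explosion to control was 0.832 (0.635 to 1.07) for Igfbp4, 0.263 (0.168 to 0.394) for Ucma, 0.244 (0.205 to 0.289) for Pla2g2a and 2.75 (1.88 to 3.94) for Wt1. Slurp1 stood at -4.42 with and -4.59 without the subset.

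The other clusters are described by their leading genes, and what set them apart was not tested. The largest control cluster (637 barcodes, 48.2%) was led by Slurp1, Pla2g3 and the hyaluronan synthase Has1, and the largest explosion cluster (642, 57.4%) by Wnt2, Slc51a and Mustn1. Of the 22 measured leading genes of that control cluster, 10 were at least 2-fold higher in that explosion cluster. A second explosion cluster (295, 26.4%) was led by the stress-induced factors Atf3, Fosb and Jun and the chaperone gene Hspa1b. In control, 316 barcodes (23.9%) were led by airway genes (Bpifa1, Scgb3a2, Ccl20) with 10.6% of their UMIs in Scgb1a1. A control cluster of 140 barcodes held 96 with at least 3 macrophage markers, and one of 107 barcodes was led by Cd79b, Ebf1 and Cd74. Explosion clusters of 44 barcodes (led by Mrc1 and Clec7a) and 72 barcodes (RT1-Da, Il1b and Cd74) matched these 2, with 17 of 17 and 18 of 25 measured leading genes at least 2-fold higher.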

How the data were processed

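The data were 10x 3' v3 single-cell libraries, 1 of control and 1 of explosion rat lung. The deposited matrices hold raw counts, whole UMI counts per gene and barcode made by the authors with Cell Ranger (7.1.0 per the file headers, 6.1.1 per the submitters' processing notes, which also name bcl2fastq 2.20 and the builds mRatBN7.2 and rn6 without their roles). They cover 21117 control and 12642 explosion barcodes with 139486248 and 9017416 UMIs, medians of 4917 and 538.5 per barcode. Barcodes with at least 200 genes were kept and mesothelial barcodes selected by the stated rule. The members and gene lists were chosen with earlier results of these data known.

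UMIs were summed over mesothelial barcodes of each library and scaled to CPM. Ratios carry exact conditional Poisson intervals and shares exact Clopper-Pearson intervals, both at 95%. For log2 ratios 0.5 counts were added to the gene's count in each library. With 1 library per group no test was possible, and a gene was counted as higher or lower past 2-fold at a mean of at least 25 CPM. Named genes were the 15 most enriched in both libraries, the 12 highest and 12 lowest ratios, the 8 largest gaps to other barcodes each way and the 2 highest and 2 lowest of each list (1 of these is not reported here); ratios and gaps had to clear 1.5-fold at the near end of their interval. Of 765 listed symbols 757 were found, 4 of them under older names. Doublets were called with Scrublet in each library (1775, 8.41%, in control and 511, 4.10%, in explosion, of which 149 and 111 were mesothelial) and were kept in the results. Free RNA was estimated at 14.6% and 16.1% of mesothelial UMIs. This takes every Scgb1a1 UMI of mesothelial barcodes as free RNA, and barcodes mixed with another cell were not told apart from it. Subsets came from Leiden clustering (resolution 0.5, 1500 variable genes, 20 components, 15 neighbours) with scanpy 1.11.5 and python-igraph 0.11.9. Other steps used Python 3.11.15, numpy 2.4.6, scipy 1.17.1, pandas 2.3.3 and matplotlib 3.10.9. The ratio and interval code was tested on simulated data. Promoters were read from a RefSeq table of assembly GRCr8, used only for these sequences. Alternatives covered the selection rule, doublets, depth, scaling, free RNA and the CPM minimum.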

Additional observations from a re-analysis of the deposited data

Results flagged for a closer look

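Among the named genes outside the selection markers, 7 were past 2-fold between the libraries in opposite directions in mesothelial and in all other barcodes. The difference was not tested, as each group has 1 library. Further genes, such as Apoe (-0.96 in mesothelial barcodes), were opposite but not past 2-fold in both. Some of the 7 were named by their gap to other barcodes, so the opposition is partly a product of that choice. The log2 ratio in mesothelial barcodes minus that in other barcodes was -5.80 for Plac9, -5.21 for Igfbp4, -4.67 for Pola2, -3.97 for Clec3b, -3.76 for Eln, -3.42 for Serpinf1 and -3.35 for Tm4sf1. All 7 were lower in explosion than in control mesothelial barcodes and higher in explosion than in control other barcodes. Without the Igfbp4-led subset the mesothelial log2 ratio of Igfbp4 turned from -1.23 to 3.51 (5 control and 16 explosion UMIs). It was 0.75 without barcodes holding markers of any other type. Pola2 went from -2.19 to -1.03 without the subset, and the remaining genes of the 7 stayed lower. The other barcodes held 148 control and 467 explosion fibroblast-selected barcodes, and the part of that in the gaps was not tested. Within fibroblast-selected barcodes the log2 ratio was 1.5 for Igfbp4, 1.27 for Pola2, 0.78 for Eln and 0.26 for Clec3b, and it was -0.19 for Plac9, -0.96 for Serpinf1 and -1.63 for Tm4sf1.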

How the results depend on the processing

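No paired analysis was possible because each group has 1 library. The difference in the mesothelial share, 2.72 points, was 1.96 with at least 4 markers, 8.68 among barcodes with at least 500 UMIs, 7.87 after thinning to 500 UMIs, and 7.34 without barcodes holding at least 3 markers of any other type (1.24% of control and 8.58% of explosion barcodes). An alternative chosen after seeing the data, leaving out barcodes with immune, ciliated or endothelial markers, gave 3.37. The 1990 genes higher and 835 lower became 863 and 1401 relative to the median gene, 530 and 401 at a mean of at least 100 CPM (1884 genes) and 5855 and 1459 with no such minimum (15629 genes). At a mean of at least 10 CPM, 3009 were higher and 1104 lower (9701 genes). These last 3 settings change how many genes are measured. Of 123 named genes past 2-fold, 118 kept their direction under all alternatives run, and of the lists past 2-fold 5 of 5 did. The exceptions, as log2 ratios, were Cfd at 0.96 and RT1-DMa at 0.78 when the markers had to hold 1% of UMIs, and Igfbp4 at 0.75 and Ccl5 at 0.11 without barcodes holding markers of any other type. Ccl5 was at 0.10 without immune, ciliated or endothelial markers, and Igfbp4 at 3.51 and Cela3b at 1.93 (from 4 UMIs in each library) without the Igfbp4-led subset, a setting also chosen after seeing the data. The cause was not tested. Depth limits the explosion library most: its mesothelial barcodes held 1054021 UMIs against 4487992.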
